A study of Rattus norvegicus with 21 samples.

Results

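Peritoneal metastases were compared with the primary tumours of the same 3 rats at day 25. BDEneu cells derive from rat bile duct epithelium, carry an activated neu (Erbb2) oncogene, and grow in rats as a cholangiocarcinoma, a cancer of the bile ducts. The members of the comparison are 6 of the series' 21 arrays, chosen by their labels: 3 arrays of a peritoneal metastasis taken at day 25 after inoculation and 3 arrays of the BDEneu tumour taken on the same day. Rats 7, 8 and 9 each gave 1 piece of both kinds, so the 3 replicates are different animals and each metastasis has a tumour from its own rat. All 9 rats of the series were male young adult Fischer 344 rats, inoculated at the same time with BDEneu cells, so no uninoculated animal and no other cell line entered any group. The remaining 15 arrays are the BDEneu tumours of days 10 and 15 (3 rats each, rats 1 to 6) and the normal right liver lobe of every rat (9 arrays). The liver lobes of rats 7, 8 and 9 are labelled day 25 in their titles and day 55 in their descriptions, and they were used as day 25. Gene expression was read as 1 log2 level per probe set on Affymetrix arrays, and 14217 genes were tested, so a difference of 1 on this scale is a 2-fold difference.

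The liver makes most proteins of blood plasma. Hepatocytes secrete albumin, fibrinogen, clotting factors, protease inhibitors and lipoproteins, and in inflammation they raise the acute phase proteins under signals such as interleukin 6. A cholangiocarcinoma that grows in the liver is surrounded by hepatocytes, whereas a nodule on the peritoneum, the lining of the abdominal cavity, lies among mesothelium, fat, muscle and the serous coats of gut and pancreas. For that reason genes that are dim in liver (mean of the 9 liver arrays under 6.00, the mean of their array medians) were counted apart from the rest. They number 4618 of the 14217 genes.

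Both kinds of piece carried the epithelial markers of bile ducts at a like level. Krt19, a keratin of bile duct cells, stood at 12.35, 12.37 and 12.54 in the metastases of rats 7, 8 and 9 and at 12.25, 12.15 and 11.96 in their tumours, against a mean of 5.85 in liver. Epcam, an adhesion molecule of epithelial cells, stood at 12.48, 12.46 and 12.34 in the metastases and at 12.36, 12.12 and 11.87 in the tumours. These levels fit the labelled tissue in both groups. Of the 6 pieces, 3 stood apart. The metastasis of rat 8 and, less, the tumour of rat 9 carried transcripts of the exocrine pancreas: the trypsinogen gene Prss1 was at 11.42 and 8.32 there and between 4.50 and 5.03 in the other 4 pieces. The tumour of rat 7 held far lower levels of liver-made transcripts than the other tumours (Alb at 11.68 against 14.29 and 14.38), and the pair of pieces from rat 7 were more alike than those of rats 8 and 9, with r of 0.993 over all probe sets against 0.959 in each of the others. Results are given with and without these pieces below.

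The metastases held much less of the transcripts that hepatocytes make, and no gene dim in liver passed the test. Of 14217 genes, 48 were called (0.338%) in limma at a Benjamini-Hochberg adjusted p under 0.05. They were 47 lower (0.331%) and 1 higher (0.00703%), and all 47 lower genes, but not the higher one, differed by 2-fold or more. None of the 4618 genes dim in liver was called (0%), against 48 of the 9599 others (0.5%). At an unadjusted p under 0.05, limma counted 863 genes (6.07%), 498 higher (3.5%) and 365 lower (2.57%). Among genes dim in liver it counted 190 of 4618 (4.11%), 142 higher (3.07%) and 48 lower (1.04%). In bulk samples fewer cells of a type and less RNA per cell cannot be told apart, nor can the arrays separate tumour cells from hepatocytes lying in the same piece, and the part of each in these differences was not tested.

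**Figure D1:**
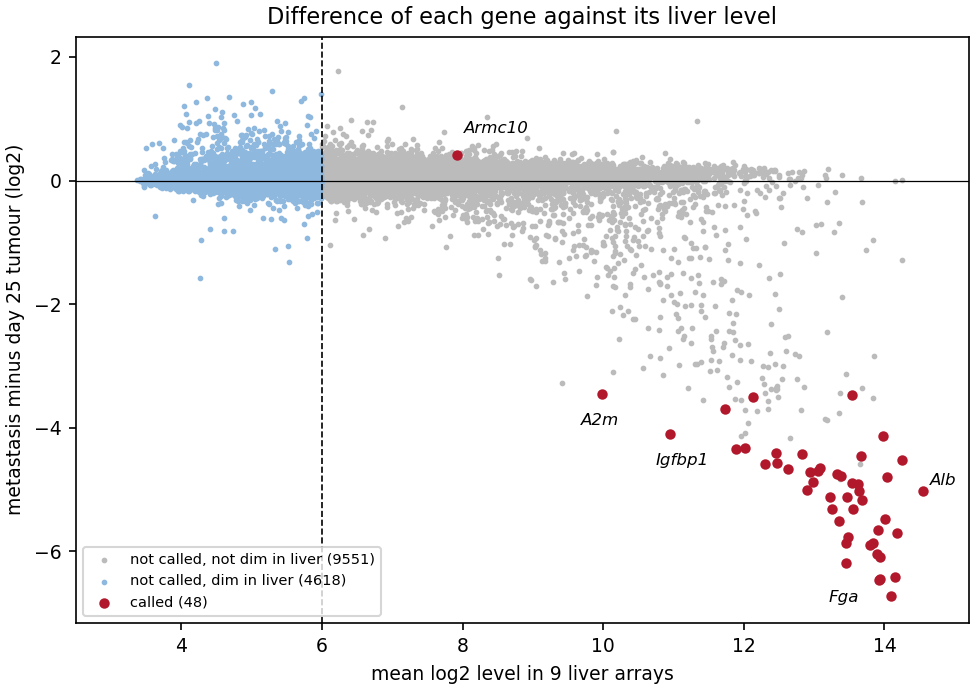
Each point is 1 of 14217 genes: the x axis gives its mean log2 level in the 9 liver arrays and the y axis the metastasis minus day 25 tumour difference (log2). Called genes are red, genes dim in liver are blue and left of the dashed bound; 47 of the 48 called genes lie below 0, and 43 of those 47 have a liver mean above 12.

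The number of calls rests on arrays outside the comparison. The fit took 1 spread per gene from all 7 groups. In Fga, a fibrinogen gene, the SD was 2.07 in the day 25 tumours and 0.68 in the metastases, while the 9 livers lay between 13.97 and 14.25. In a fit of the 6 arrays alone 1 gene was called, Igfbp1, and the same gene was the only call in a fit of the 12 tumour and metastasis arrays. With the rat as a fixed block over all arrays 33 genes were called (0.232%), all lower and all among the 48. With the rat as a random block 56 genes were called (0.394%), the 48 among them. Without the tumour of rat 7 the count rose to 220 (205 lower and 15 higher), and without both rat 7 pieces it was 166. Leaving out both pieces of rat 8 gave 11 calls and both pieces of rat 9 gave 14. The other single pieces whose loss moved the count by more than 1.5 times were the tumours of rat 8 (21 calls) and rat 9 (25) and the metastasis of rat 9 (25). Without the 2 pieces that held pancreatic transcripts 16 genes were called, all lower, and 14 of them were among the 48.

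Fibrinogen led the list. Its 3 chains, encoded by Fga, Fgb and Fgg, form the clot, and all 3 genes are liver-made acute phase genes. The Fga level was 6.59, 5.28 and 5.64 in the metastases of rats 7, 8 and 9 and 10.17, 13.73 and 13.79 in their tumours. No metastasis overlapped any tumour, and the metastases also lay below the 6 tumours of days 10 and 15, which ranged from 12.61 to 13.88. The difference was -6.73 (95% interval -8.11 to -5.34, adjusted p = 0.000187 in limma). This interval uses the spread pooled over all 7 groups, not the spread between the 3 rats. With the 6 arrays alone the adjusted p was 0.91, and 0.552 with the rat as a block, in limma. Fgb stood at 5.87, 4.99 and 5.33 in the metastases and at 8.82, 13.25 and 13.45 in the tumours, a difference of -6.45 (adjusted p = 0.000696 in limma). A pair of further Fgb probe sets on the array were dim in both groups and differed by -0.05 and -0.13, so the Fgb result rests on 1 probe set, whereas the other Fga probe set differed by -4.99. Fgg followed at -6.42 (adjusted p = 0.000187 in limma). The within-rat differences of Fga were -3.58, -8.45 and -8.15, all 3 outside the interval given above. In all 3 fibrinogen genes rat 7 showed the smallest of the 3.

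The upstream sequences of 4 called genes are shown because these genes fell together and are textbook examples of liver-specific promoters. RefSeq promoters of build GRCr8 were matched for 39 of the 47 lower genes. Each sequence is the 250 bases before the annotated start, on the gene's strand. Capitals mark GTTAAT (or ATTAAC, its reverse complement), part of the binding site of the liver factor HNF1, and in Igfbp1 also CAAAACA, the core of the insulin response element. Igfbp1 lies at chr14:86261027-86261276 (plus strand), Fga at chr2:170671919-170672168 (plus strand, the first of 2 listed starts), Fgb at chr2:170700876-170701125 (minus strand) and Alb at chr14:17906980-17907229 (minus strand).
Igfbp1: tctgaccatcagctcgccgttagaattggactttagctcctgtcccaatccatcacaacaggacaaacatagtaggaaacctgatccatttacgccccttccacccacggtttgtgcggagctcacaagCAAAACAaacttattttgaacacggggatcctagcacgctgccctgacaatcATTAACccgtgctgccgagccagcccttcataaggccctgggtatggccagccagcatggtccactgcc
Fga: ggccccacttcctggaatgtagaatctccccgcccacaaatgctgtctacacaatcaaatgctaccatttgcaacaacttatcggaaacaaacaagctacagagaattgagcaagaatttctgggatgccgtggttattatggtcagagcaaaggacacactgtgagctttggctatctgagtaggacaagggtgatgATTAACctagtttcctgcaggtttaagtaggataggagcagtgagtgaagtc
Fgb: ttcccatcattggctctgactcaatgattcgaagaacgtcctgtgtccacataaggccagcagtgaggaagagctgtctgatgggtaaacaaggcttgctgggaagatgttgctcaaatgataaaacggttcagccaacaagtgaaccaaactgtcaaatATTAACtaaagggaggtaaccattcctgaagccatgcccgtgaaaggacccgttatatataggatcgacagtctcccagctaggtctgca
Alb: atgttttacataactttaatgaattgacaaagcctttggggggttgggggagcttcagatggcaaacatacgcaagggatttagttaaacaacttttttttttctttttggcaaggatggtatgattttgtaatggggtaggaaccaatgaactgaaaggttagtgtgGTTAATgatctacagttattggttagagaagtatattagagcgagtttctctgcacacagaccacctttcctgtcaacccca
Searched on both strands, GTTAAT occurred in 14 of the 39 matched genes and in 6.45% of the 33469 promoters in the table. TTNNGCAA, part of the binding site of the C/EBP factors that act in the acute phase response, occurred in 17 of the 39 genes and in 9.22% of all promoters. CAAAACA occurred in 3 of the 39 genes and in 5.46% of all promoters. A gene was counted if any of its listed starts held the motif, whereas the share over all promoters counts each start. The counts and shares are thus not directly comparable. No match of these 3 motifs overlaps another in the printed sequences, and a match describes the letters only.

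The other plasma proteins followed the same pattern. Orm1, which encodes the acute phase protein orosomucoid, stood at 7.38, 5.57 and 6.08 in the metastases and at 10.20, 14.08 and 14.13 in the tumours. Again no metastasis overlapped a tumour, and the difference was -6.46 (95% interval -8.00 to -4.91, adjusted p = 0.000297 in limma). The within-rat differences of Orm1, -2.82, -8.51 and -8.05, all lay outside this interval, which also uses the pooled spread. Among the 13 called acute phase proteins and protease inhibitors, the differences ran from -6.46 to -3.46. They include haptoglobin (Hp, -4.52), which binds free haemoglobin, hemopexin (Hpx, -5.65), which binds haem, and the protease inhibitors Serpina1 (-5.47) and Pzp (-6.08). The 9 genes of fibrinogen and blood clotting, among them prothrombin (F2, -5.51), factor IX (F9, -5.00), antithrombin (Serpinc1, -5.86) and plasminogen (Plg, -4.75), ran from -6.73 to -4.58. Both called complement genes, C9 (-5.12) and C4bpa (-5.77), were lower, and of the apolipoproteins 4 were called (Apoc1, Apoc3, Apoa5 and Apoh), from -5.31 to -4.14. With the rat as a block C9 (adjusted p = 0.0772 in limma), Apoc1 (0.05001, just above the threshold), Apoc3 (0.0558) and Apoa5 (0.088) were no longer called, which left 1 of the 2 complement genes and 1 of the 4 apolipoproteins. The block kept 7 of the 9 clotting genes and 11 of the 13 acute phase proteins and protease inhibitors. The carrier proteins of plasma fell too: Alb, the gene of serum albumin, by 5.03, Gc, the vitamin D binding protein, by 5.71 and Rbp4, the retinol carrier, by 4.89 on the log2 scale. With these, 8 carrier, fetuin and adhesion protein genes of plasma were called, 6 of them also with the block. These role groups were formed after the calls were known.

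Enzymes that stay inside the hepatocyte were among the calls as well as secreted proteins. Pck1, the rate-limiting enzyme of gluconeogenesis, stood at 6.03, 5.32 and 5.17 in the metastases and at 8.62, 11.21 and 10.79 in the tumours, a difference of -4.70 (adjusted p = 0.000696 in limma). Tdo2, which degrades tryptophan, differed by -4.87, Hpd, which degrades tyrosine, by -4.71 and Mat1a, the liver enzyme that makes S-adenosylmethionine, by -4.42. The cytochrome P450 genes Cyp2c6v1 (-6.19) and Cyp2c22 (-5.32) and the glucuronosyltransferases Ugt2b35 (-4.40) and Ugt2b15 (-4.35) belong to families of near-identical copies, whose probes may bind several members. Together the 10 called enzymes and transporters ran from -6.19 to -3.50, and 6 of them were called with the rat as a block.

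**Figure D2:**
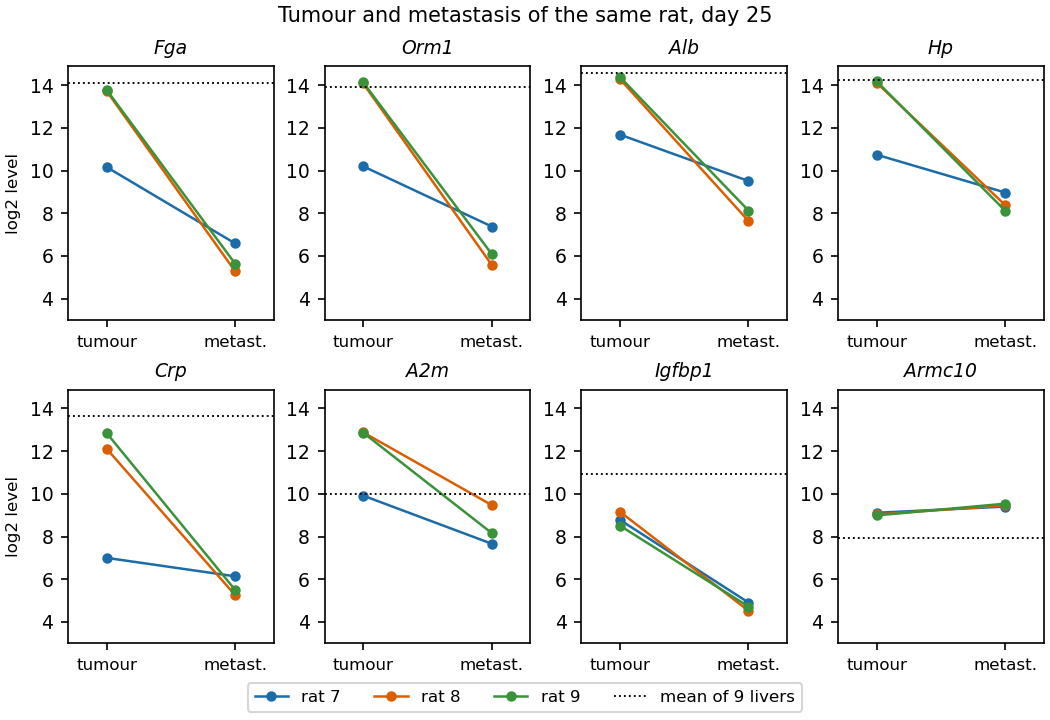
Each panel shows the log2 level of 1 gene in the tumour and the metastasis of rats 7, 8 and 9 (joined by a line) and its mean over the 9 livers (dotted). In Fga, Orm1, Alb, Hp, Crp and A2m the rat 7 tumour lies below the tumours of rats 8 and 9, in Igfbp1 the 3 tumours lie together, and Armc10 is higher in all 3 metastases.

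The hepatocyte list gave 7 of 18 measured genes lower and none higher, with a median difference of -3.81, against 0.331% of all genes lower and a median of 0.06 over all genes tested. Alb was at 9.51, 7.64 and 8.13 in the metastases and at 11.68, 14.29 and 14.38 in the tumours. In the acute phase list 12 of 20 genes fell and none rose, and the median difference was -4.49. All 20 were lower in the metastasis of every rat, against 1506 of all 14217 genes. The 20 include 8 genes that were not called, such as Cp (ceruloplasmin, -2.85) and C3, the central complement protein (-1.28). The bile acid and drug handling list had no called gene of 18 (9 lower and none higher at an unadjusted p under 0.05 in limma), with a median of -1.65. Its brightest members were Cyp2e1, an alcohol-oxidising cytochrome, at 6.06, 5.20 and 5.65 in the metastases and 6.52, 8.90 and 9.77 in the tumours, and Cyp27a1, a bile acid synthesis enzyme, at 6.38, 6.62 and 6.46 against 6.71, 8.55 and 8.95. In both genes the tumour of rat 7 was close to the metastases. Hepatocyte genes with the largest spread among the metastases were Cps1, an enzyme of the urea cycle, at 5.02, 10.61 and 4.12, and Apoa1, the main protein of high density lipoprotein, at 5.41, 9.96 and 5.12. The high value of both was in the rat 8 metastasis, the piece that also carried transcripts of pancreas and intestine. Intestine expresses Cps1 and Apoa1 too. That metastasis had 11 of 18 hepatocyte genes above the highest array median (6.06), against 7 in rat 7 and 5 in rat 9. The source of these transcripts was not tested.

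Rat 7 set the lower end of nearly every difference. Over the 47 lower genes the median within-rat difference was -1.99 in rat 7, -6.32 in rat 8 and -6.65 in rat 9, and rat 7 had the smallest decrease in 46 of the 47, Igfbp1 being the exception. Relative to the liver of its own rat, the tumour of rat 7 was lower by a median of 5.72 in these genes, and the tumours of rats 8 and 9 by 1.67 and 1.36. The metastases were lower than their own livers by medians of 7.72, 8.13 and 8.10. By these medians the 3 metastases lay close together and the tumours did not. Single genes spread more, such as Rup2 at 8.63, 6.01 and 7.28 in the metastases of rats 7, 8 and 9. Of the 47 genes 44 were lower by more than 1 in all 3 rats, among 61 such genes in all (0.429%), and Crp (C-reactive protein), Rup2 and Fetub (fetuin B) were the 3 that did not. Crp was at 7.00 in the tumour of rat 7 and at 12.12 and 12.86 in those of rats 8 and 9, against 6.14, 5.26 and 5.50 in the metastases; its blocked adjusted p was 0.123 in limma. In 35 of the 47 genes the metastasis mean was under the lowest array median (5.98), a range in which RMA levels flatten. Differences this large are thus not exact, and neither is the closeness of the 3 metastases.

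Over all genes, the median difference fell as the liver excess over the tumours of days 10 and 15 rose, arrays that are not part of the comparison. Among the 382 genes that were 2 to 3 higher in liver than in those earlier tumours the median difference was -0.85, by rat -0.09, -0.95 and -1.63. Among the 576 genes that were lower in liver by at least 2, it was 0.20, by rat 0.05, 0.28 and 0.28. Genes brighter in the earlier tumours than in liver thus stood slightly higher in the metastases and genes brighter in liver lower, as a description over genes that are not independent of each other. The larger group of 6175 genes with a liver excess of 0 to 1 had a median of 0.01.

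Igfbp1 was the 1 lower gene in which rat 7 did not show the smallest decrease. It encodes insulin-like growth factor binding protein 1, a secreted liver protein that insulin represses. Its level was 4.91, 4.53 and 4.72 in the metastases of rats 7, 8 and 9 and 8.78, 9.17 and 8.51 in their tumours. All 3 metastases were near the lower end of the scale and far below the 3 tumours. Tumours of days 10 and 15 ranged from 7.91 to 9.99. The livers of the same rats stood at 13.79, 10.35 and 10.34, so the tumour of rat 7 was at the level of the other tumours although its liver was higher. The difference was -4.10 (95% interval -5.55 to -2.65, adjusted p = 0.00829 in limma), by rat -3.87, -4.64 and -3.79. This gene alone was called without the liver arrays (adjusted p = 0.015 with the 6 arrays and 0.00286 with the 12 tumour and metastasis arrays, in limma). With the rat as a block its adjusted p was 0.0296 over all arrays and 0.228 over the 6 arrays, in limma. It was also not called when both pieces of rat 8 (adjusted p = 0.243) or of rat 9 (0.167) were left out, nor without the pieces with pancreatic transcripts (0.135), the tumour of rat 8 (0.0728) or the metastasis of rat 9 (0.0528), in limma. Over those alternatives its difference ran from -4.26 to -3.83.

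Of the 14 genes of the insulin-like growth factor list, Igfbp1 was the only called gene. The median difference of the list was -0.38, by rat -0.33, -0.33 and -0.41. Igfbp6, a binding protein that prefers Igf2, was at 7.42, 7.34 and 8.43 in the metastases and at 7.10, 6.63 and 7.03 in the tumours, higher in every rat, with a difference of 0.81 (adjusted p = 0.346 in limma). Igf1, the growth factor itself, was at 9.29, 11.48 and 11.24 against 9.03, 11.33 and 11.88, and the groups overlapped. The growth hormone receptor Ghr ranged from 4.42 to 5.66 in the metastases and from 4.18 to 8.71 in the tumours.

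A2m differed from the other called genes in where it was high. It encodes alpha-2-macroglobulin, a protease trap and the major acute phase protein of the rat, and it is named here after its values were seen. At days 10 and 15 its liver minus tumour difference was -3.31, whereas the livers of rats 7, 8 and 9 stood at 12.80, 13.34 and 13.24. The metastases were at 7.66, 9.47 and 8.16 and the tumours at 9.92, 12.88 and 12.86. All 3 metastases were thus below the 3 tumours, and also below the earlier tumours, which ranged from 10.93 to 12.49. The difference was -3.46 (95% interval -4.80 to -2.11, adjusted p = 0.0183 in limma), by rat -2.25, -3.41 and -4.70, and the blocked adjusted p was 0.0309. It lost the call in 10 of the 21 alternatives, its difference staying between -4.44 and -2.83. These included the fits without the tumour of rat 8 (adjusted p = 0.186 in limma) or of rat 9 (0.172). The fit without the pieces with pancreatic transcripts (0.0879) was another. A2m was the only one of the 47 genes whose mean in the day 25 tumours exceeded its mean over the 9 livers, which ranged from 6.85 to 13.34. Against the liver of its own rat each day 25 tumour was lower, by rat -2.89, -0.46 and -0.38.

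Armc10 was the 1 gene called higher. It encodes an armadillo repeat protein found at mitochondria. The metastases were at 9.40, 9.46 and 9.54, the tumours at 9.11, 9.04 and 8.99, and the 6 earlier tumours at 9.17 to 9.33. All 3 metastases lay above all 9 tumours, by little, as they did in 248 genes (1.74%); they lay below all 9 in 243 (1.71%), the 47 lower genes included. The difference was 0.42 (95% interval 0.25 to 0.59, adjusted p = 0.0303 in limma), by rat 0.29, 0.42 and 0.55. It lost the call with the rat as a block (adjusted p = 0.13 in limma) and in 14 of the 21 alternatives tried, its difference staying between 0.35 and 0.48.

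Among the 4618 genes dim in liver, steps between tumour and metastasis of the same rat were small or unequal. The arrays of the groups did not overlap in 386 of them (8.36%), against 10.9% of all genes. None of them moved by more than 1 in the same direction in all 3 rats, and by more than 0.5 there were 8 higher (0.173%) and 2 lower (0.0433%). The genes with the largest smallest difference over the rats are described here without a test of that choice. Psca, a surface antigen of glandular epithelium, was at 8.64, 8.26 and 8.62 in the metastases and 7.82, 7.59 and 7.85 in the tumours, higher by 0.82, 0.67 and 0.77. The earlier tumours reached from 7.97 to 8.90, so the day 25 tumours were the lower ones. Rab27b, a small GTPase of vesicle release, was at 6.43, 6.32 and 6.43 against 5.65, 5.73 and 5.65, and Rap2b, another small GTPase, was at 7.96, 7.71 and 7.86 against 7.34, 7.03 and 7.26. In both genes the metastases lay above all 9 tumours, as in 41 of the genes dim in liver (0.888%). Neither passed over all genes (adjusted p = 0.224 and 0.349 in limma), nor did Psca (0.321). Eif5a2, a translation factor, was higher by 0.81, 0.59 and 0.56, and Lrrc15, a surface protein of activated fibroblasts, by 0.48, 0.56 and 0.54.

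Efemp1, Nbl1 and Aoc3, chosen by the same rule, had unequal steps between rats. Efemp1, which encodes the matrix protein fibulin-3, was at 4.97, 6.52 and 7.75 in the metastases and 4.33, 4.33 and 5.91 in the tumours. Every rat was higher in the metastasis, yet the groups overlapped, and the difference of 1.55 did not pass (adjusted p = 0.546 in limma). Nbl1, a secreted antagonist of bone morphogenetic proteins, was at 6.14, 7.44 and 7.74 against 5.57, 5.86 and 6.68. Aoc3, an adhesion protein of vessels and fat, was higher by 0.62, 1.32 and 0.84. Without the metastasis of rat 7, 9 genes dim in liver were called, all higher: Adamtsl1, Ccdc88a, Cdkn2b, Efemp1, Epdr1, Gpc1, Matn2, Nbl1 and Sfrp2. In Adamtsl1, Gpc1, Matn2 and Sfrp2 the rat 7 pieces were alike (Sfrp2 at 5.37 in the metastasis and 5.54 in the tumour), whereas rats 8 and 9 differed by 2.61 and 1.76 in Sfrp2, a secreted Wnt modulator. Without the tumour of rat 7, 9 genes dim in liver were called (6 higher and 3 lower). Without both pieces of rat 7, 6 were called, all higher: Adamtsl1, Epdr1, Gpc1, Lyrm9, Matn2 and Nbl1. Efemp1 (adjusted p = 0.0726 in limma), Sfrp2, Ccdc88a and Cdkn2b were then not among them.

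On the lower side, Il6, the gene of interleukin 6, was at 5.08, 6.85 and 5.40 in the metastases and at 5.86, 8.39 and 5.96 in the tumours. Each rat was lower in its metastasis, by 0.77, 1.54 and 0.56, but rats differed more than tissues did, and the adjusted p was 0.849 in limma. The earlier tumours spanned 5.73 to 9.00. Chrdl2, a secreted antagonist of bone morphogenetic proteins, was at 5.31, 6.58 and 5.19 against 6.30, 7.88 and 6.24. Scnn1g, a subunit of the epithelial sodium channel, was at 5.15, 5.17 and 5.14 against 5.42, 5.68 and 5.47, below all 9 tumours in each metastasis, as in 21 genes dim in liver (0.455%), but under the array medians throughout (adjusted p = 0.105 in limma). Its other probe set, at a like level, differed by 0.05, and the mean of its probe sets by -0.16 (adjusted p = 0.735 in limma). The probe set used was called without the tumour of rat 7 (adjusted p = 0.0263 in limma). Bhlhe22, a transcription factor, was called without the 2 pieces that held pancreatic transcripts (adjusted p = 0.00635 in limma).

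**Figure D3:**
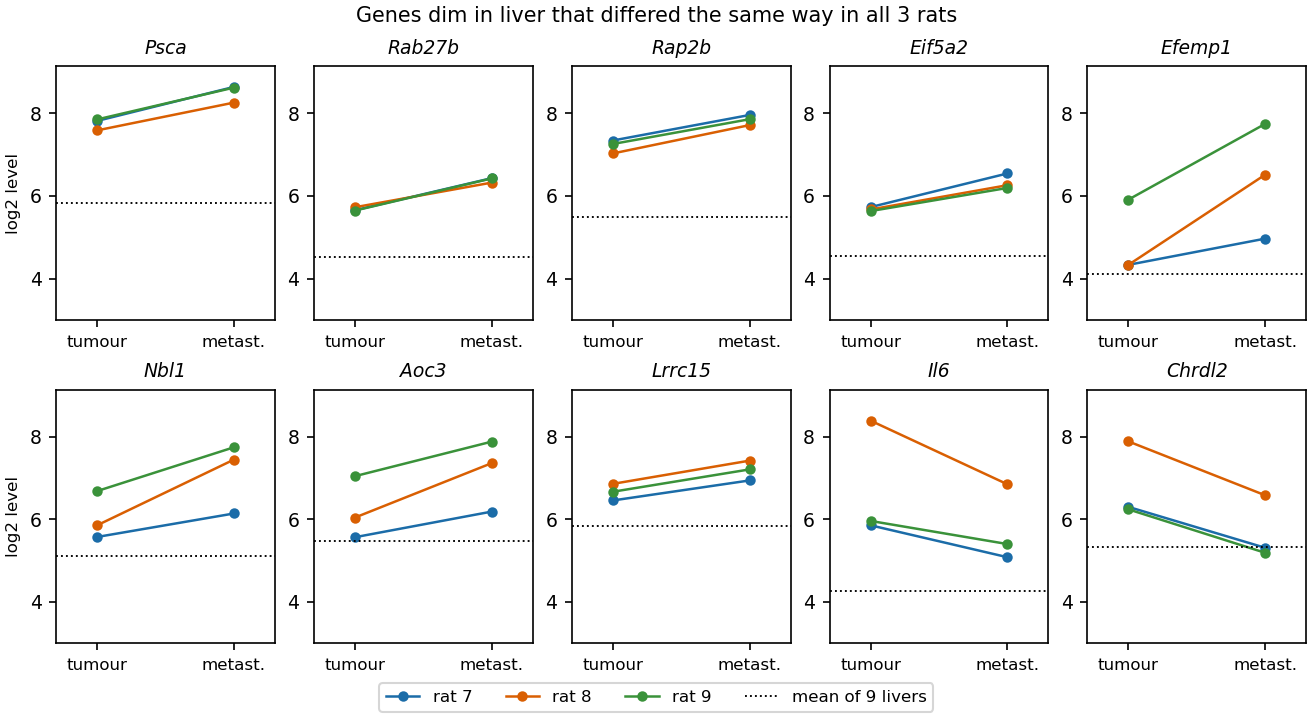
Log2 levels of 10 genes dim in liver in the tumour and the metastasis of rats 7, 8 and 9 (joined by a line), with the mean of the 9 livers dotted. Psca, Rab27b, Rap2b, Eif5a2 and Lrrc15 differed by like steps in each rat, whereas Efemp1, Nbl1 and Aoc3 differed more between rats than between tissues.

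Erbb2, the oncogene the cells carry, was at 10.80, 9.47 and 10.09 in the metastases and at 10.73, 10.00 and 9.36 in the tumours, and the groups overlapped. Its difference was 0.09 with a 95% interval of -0.70 to 0.88. None of the 18 measured genes of the ErbB list was called (none at an unadjusted p under 0.05 in limma), and its median was -0.01. With 0.338% of all genes called, lists of this size would mostly hold no called gene, so a count of 0 in this and the following lists says nothing particular about them, and their values are given as a description. The ErbB ligands Btc and Hbegf were higher in rat 9 (0.92 and 0.96) and near 0 or below in rat 8 (-0.01 and -0.23). Areg, another ligand, was at 9.63, 6.56 and 7.77 against 9.59, 7.73 and 6.88. Of 20 biliary genes none was called (0.338% of all genes) and 1 was higher at an unadjusted p under 0.05 in limma (3.5% of all genes), with a median of 0.25, by rat 0.08, 0.04 and 0.45. The bright surface protein gene Tspan8 was at 13.48, 13.33 and 13.34 against 13.67, 13.32 and 13.15, and Krt20, a keratin of gut and transformed duct epithelium, at 12.92, 11.98 and 12.40 against 12.78, 12.09 and 11.82. The laminin-332 and desmosome list had a median of 0.17, with Lamb3 at 11.76, 11.73 and 11.87 against 11.47, 11.71 and 11.34. The cell cycle list (28 genes) had a median of 0.12, with Pcna, the clamp of DNA replication, at 11.81, 11.64 and 11.48 against 11.84, 11.24 and 11.26.

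The stromal and immune lists are described by their values, since none held a called gene and 0.338% of all genes were called. The 25 genes of collagen and myofibroblasts had a median of 0.05, by rat -0.31, 0.46 and 0.02. Col1a1, the main collagen of scar, was at 11.81, 14.02 and 13.87 in the metastases and at 12.28, 13.62 and 13.84 in the tumours: both pieces of rat 7 were the low ones and the other 4 pieces lay close together. Postn, the myofibroblast protein periostin, was at 11.78, 13.15 and 12.83 against 12.76, 13.09 and 13.01. The macrophage list (16 genes) had a median of 0.20. Clec4f, a receptor found on the resident macrophages of the liver (Kupffer cells), was at 5.94, 5.97 and 5.87 in the metastases and at 5.77, 7.54 and 8.08 in the tumours, a difference of -1.20 (adjusted p = 0.766 in limma). Stab2, a scavenger receptor of liver sinusoids, was at 5.33, 4.99 and 5.36 against 5.70, 6.67 and 6.88 (adjusted p = 0.293 in limma). Its metastases were below all 9 tumours, as in 1.71% of all genes. Stab2 was named after its values were seen. The 8 genes of the liver sinusoid list had a median of -0.08, from -1.52 to 0.39. Of them 4 were lower and 1 higher in every rat, against 1506 lower and 3745 higher of all 14217 genes. In the same list Lyve1 differed by 0.20 (0.19 in its other probe set), and Fcgr2b by -0.02 to 0.41 over the alternatives. Lyz2, the lysozyme of myeloid cells, was bright in both groups, between 13.28 and 13.91. Antigen presentation genes had a median of 0.24, T and NK cell genes 0.01 and neutrophil genes -0.18.

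The hypoxia list and single chemokine genes had differences of opposite sign in rats 8 and 9. The median of the 22 hypoxia and glycolysis genes was 0.15, -0.40 and 0.48 by rat, and Slc2a1, the glucose transporter that hypoxia raises, was at 10.27, 8.61 and 9.34 in the metastases and 9.98, 9.91 and 8.16 in the tumours. The chemokine list as a whole did not: the medians of its 22 genes were 0.01, 0.01 and 0.04 by rat. Of its genes, Cxcl2 and Ccl3 are named after their values were seen. Cxcl2, a chemokine that draws neutrophils, was at 10.13, 7.29 and 9.14 against 10.74, 11.88 and 6.40, and Ccl3, a macrophage chemokine, at 10.54, 7.43 and 9.53 against 11.32, 11.38 and 7.13. In both, the tumour was the higher piece in rats 7 and 8 and the metastasis in rat 9. Ptgs2, the prostaglandin synthase of inflammation, differed by -1.17, -3.58 and 0.02. Ccl9, a chemokine that is bright in liver (mean 13.05), was at 5.08, 4.78 and 5.68 against 6.15, 11.64 and 11.79, and its difference of -4.68 did not pass (adjusted p = 0.0714 in limma).

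**Figure D4:**
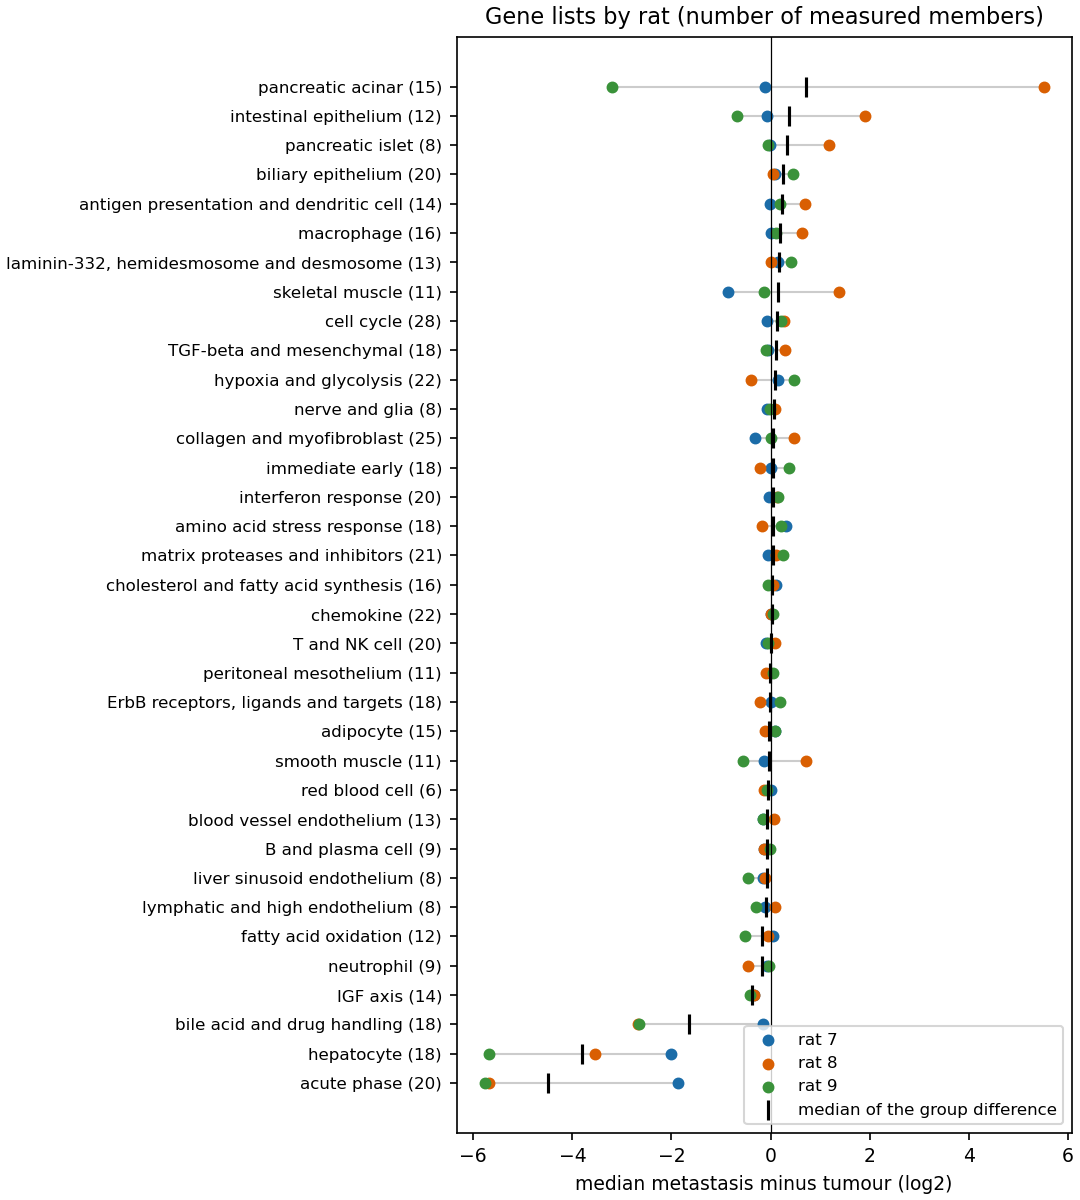
For each of 35 gene lists, coloured points give the median metastasis minus tumour difference (log2) in rats 7, 8 and 9 and the black tick the median of the group difference; the number of measured genes is in brackets. The acute phase, hepatocyte and bile acid lists lie lowest at -4.49, -3.81 and -1.65, and the pancreatic acinar list has the widest spread between rats, from -3.21 to 5.51.

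Of the 35 lists 31 had no called gene, a count to be read against the 0.338% called over all genes. Without the bile acid list their medians ran from -0.18 (neutrophil) to 0.71 (pancreatic acinar). The remaining 4 lists with a called gene were hepatocyte, acute phase, the insulin-like growth factor list and peritoneal mesothelium, where the 1 called gene of 11 was Hp, which the liver makes too.

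Markers of neighbouring organs were high in single pieces of both groups. Of 15 acinar genes, 15 stood above the highest array median (6.06) in the metastasis of rat 8, 14 in the tumour of rat 9 and 1 or 2 in the other 4 pieces. The log2 of their summed level was 10.04, 15.17 and 9.74 in the metastases of rats 7, 8 and 9 and 10.16, 9.59 and 12.88 in the tumours. Ctrb1, the gene of a chymotrypsinogen, reached 13.44 in the rat 8 metastasis and 9.80 in the rat 9 tumour and lay between 4.29 and 4.48 elsewhere. Insulin (Ins2) was at 9.18 in the rat 8 metastasis and between 4.84 and 5.21 in the other 5 pieces. The intestinal alkaline phosphatase gene Alpi was at 9.52 in the same metastasis, 6.96 in the rat 9 tumour and 5.23 to 5.58 in the rest, and Jchain, the joining chain of secreted antibodies, was at 10.86, 7.98 and 4.51 to 6.24. In skeletal muscle genes, the actin Acta1 was at 8.53, 10.46 and 4.21 in the metastases and 10.59, 4.30 and 4.49 in the tumours, high in both pieces of rat 7 and in the metastasis of rat 8. These levels marked pieces of both groups, and their part in the differences above was not tested beyond the fit without the 2 pieces.

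Hp of the mesothelium list apart, the markers of the peritoneal lining and of fat named here overlapped between the groups. Msln, which encodes mesothelin and is also made by many carcinomas, was at 10.85, 10.19 and 10.49 in the metastases and 10.61, 9.96 and 9.99 in the tumours. Wt1, a transcription factor of mesothelium, was at 5.72, 7.42 and 7.07 against 5.85, 5.98 and 6.89. The fat hormone gene Adipoq was between 4.55 and 5.03 in all 6 pieces, under the array medians. Fabp4, a brighter gene of the adipocyte list, was at 8.74, 9.93 and 9.48 against 8.62, 8.25 and 8.82. Of the 15 adipocyte genes 4 were higher in every rat and 2 lower in every rat, near the shares over all genes (3745 higher and 1506 lower of 14217). The median of the mesothelium list was -0.00 and that of the adipocyte list -0.02.

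**Figure D5:**
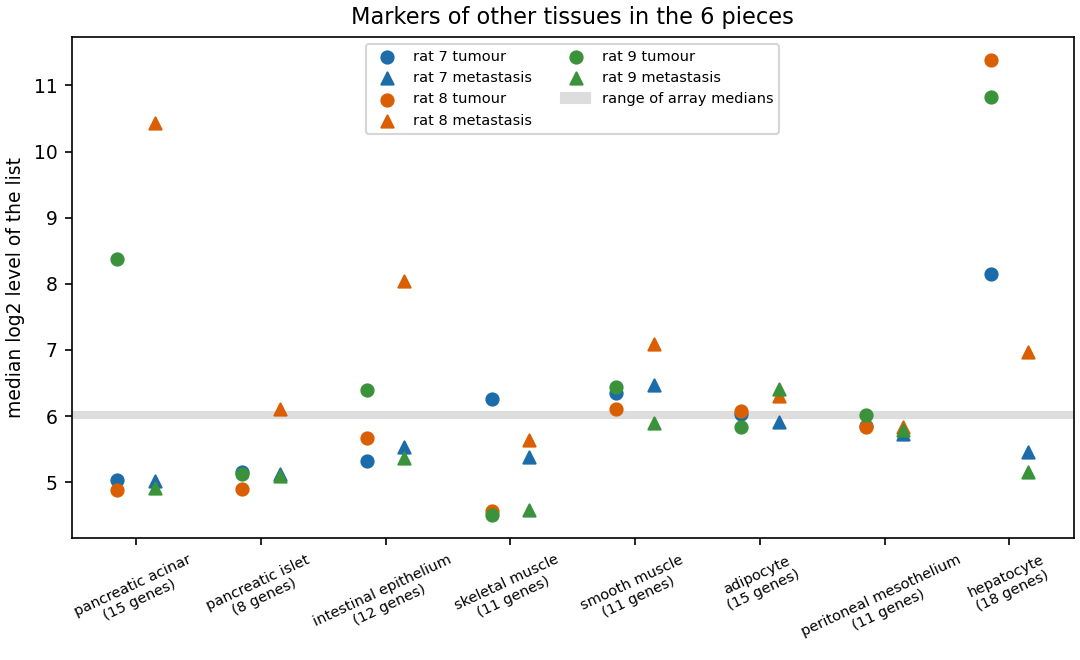
Median log2 level of 8 marker lists in each of the 6 pieces (circles for tumours, triangles for metastases, 1 colour per rat), with the range of array medians in grey. The acinar list stands at 10.43 in the rat 8 metastasis and 8.38 in the rat 9 tumour, and the hepatocyte list is lower in every metastasis than in the tumour of its rat.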

How the data were processed

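The authors deposited 1 log2 level for each probe set and array, computed with RMA per the submitters' processing notes; its version was not given in these sources. RMA equalises the distribution of all arrays and compresses the lowest and highest levels. Arrays carry no read depth, and 3 pieces a group limit the precision. Of 31099 probe sets, 57 were array controls and 20826 had a single symbol in the platform annotation. The 436 with several symbols and the 9831 not listed there were not used. Symbols of 20758 were updated through the gene identifier (RefSeq, GRCr8). Each gene was represented by the probe set whose mean over the 21 arrays was highest (14217 genes). Groups came from the labels. R 4.3.3 and limma 3.58.1 (lmFit, eBayes) fitted 7 group means, without a block, with p-values adjusted by Benjamini-Hochberg over all genes. The code was tested on simulated data with independent noise, 1 spread per gene and no rat effect. That test cannot speak for the unequal group spreads and the pairing of these data. The fit with the rat as a block was an alternative.

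Rat numbers pair the samples because both pieces came from the same animal, per the labels; deviations of tumour and metastasis from their group means correlated by 0.578, 0.111 and 0.0412 in rats 7, 8 and 9. The comparison, the 35 lists (535 entries measured) and the rules were chosen with earlier results of these data known. The rule named up to 6 called genes a direction that are not dim in liver, up to 3 called or 2 bright members per list, Erbb2, cell type markers, and up to 10 genes a direction dim in liver with the largest smallest difference over the rats; other genes named were chosen after their values were seen. Alternatives were the block (fixed and random), fewer arrays, other scaling, probe set choices, a filter on dim genes, and leaving out each piece or rat. Leaving out the 2 pieces with pancreatic transcripts was chosen after seeing the data.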

Additional observations from a re-analysis of the deposited data

How the results depend on the processing

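The direction of the 48 called genes was the same under all 21 alternatives (the filter on dim genes left out 2 of the 48), but most calls depended on the setting. The shared direction was largely fixed in advance. In each of the 48 the arrays of the groups did not overlap, so leaving out pieces could not reverse it. The blocks, the fits of 6 or 12 arrays and the trend in the prior return the same difference by construction. The rat numbers pair the pieces. With the replicate block over all arrays 33 genes were called (all by 2-fold or more), with a random block 56, and with the block over the 6 arrays 0 (1212 at an unadjusted p under 0.05 in limma). The 6 arrays alone and the 12 tumour and metastasis arrays called 1 gene each, also by 2-fold or more. Without 1 piece or rat the count ran from 11 to 220, that of genes called by 2-fold or more from 11 to 196, and that of called genes dim in liver from 0 to 9. Without the 2 pieces that held pancreatic transcripts 16 genes were called, all by 2-fold or more, and 1 of them was dim in liver. The mean of all probe sets of a gene called 1 gene dim in liver, Stmn2. A trend in the prior, median centring, a second quantile normalization, leaving out dim genes and both probe set choices gave 47 to 52 calls, and both other bounds for dim in liver gave 0. The difference of Erbb2, not called in any setting, changed sign when pieces were left out, from -0.25 to 0.44. Of 734 list medians recomputed, 679 moved by less than the SD between rats, and 52 of the other 55 came from leaving out pieces. The 679 include the medians from the blocks, the fits of 6 or 12 arrays and the trend in the prior, which could not move. Apart from the fewer arrays in some fits, the cause was not tested. With 3 rats, differences under the spread between rats could not be resolved.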
